A study of Caenorhabditis elegans with 2 samples.

Results

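The regions described here are the autosomal promoter regions of UNC-62 in the nematode Caenorhabditis elegans. They are the listed regions on chromosomes other than X whose summit fell in the promoter window, from 1000 bp before to 200 bp past an annotated transcript start of a protein-coding gene. Of 2155 regions in the list called on both replicates together, 1649 were autosomal and 603 of these were at promoters, which left 1046 other autosomal regions. Position relative to a start set them apart within a list that the authors had already limited by signal and that holds background as well as peaks.

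DNA bound by UNC-62 was recovered by chromatin immunoprecipitation and sequenced (ChIP-seq) in 2 biological replicates, which form 1 group. The animals were whole worms of strain OP600, which has the allele unc119(ed3) and the transgene wgIs600, a copy of unc-62 fused to TY1, EGFP and FLAG together with an unc119 rescue, and every sample carried both. The tag is a C-terminal GFP and FLAG fusion, both sexes were pooled, and the labels name the antibody's target as unc-62. The stage was labelled dauer in 1 field and D4 worms in another, which do not match, and the age was labelled unknown. No untagged strain, second stage or control library was analysed here, and the number of reads is unknown from the files.

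UNC-62 is a homeodomain protein of the Meis class. Such proteins bind DNA together with Pbx proteins, in the worm chiefly CEH-20, and with Hox proteins, and they are known in C. elegans for roles in embryonic patterning, in cell migration and in the control of yolk protein genes in the adult intestine. A promoter is the stretch around the start of transcription where general and gene-specific factors assemble. Many worm promoters sit between a pair of genes that are read in opposite directions.

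The sequences below are the 201 bases centred on the summits of 5 of the leading promoter regions that lie outside annotated exons, leaving out 1 chromosome. They show which of the searched motifs stand under the leading summits and which do not. They were read 5′ to 3′ from the RefSeq genome of build WBcel235 (ce11), on the strand of the nearest gene. Capitals mark the GA repeat unit GAGAGA, the Meis core TGACAG and the CG-containing hexamer GCGCGA, on either strand.
cdc-48.1, chrII:10563488-10563688, minus strand: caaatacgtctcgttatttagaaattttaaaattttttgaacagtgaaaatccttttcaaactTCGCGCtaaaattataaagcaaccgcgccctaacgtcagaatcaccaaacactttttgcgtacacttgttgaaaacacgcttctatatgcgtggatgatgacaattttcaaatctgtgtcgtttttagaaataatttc
miz-1, chrIV:10821845-10822045, plus strand: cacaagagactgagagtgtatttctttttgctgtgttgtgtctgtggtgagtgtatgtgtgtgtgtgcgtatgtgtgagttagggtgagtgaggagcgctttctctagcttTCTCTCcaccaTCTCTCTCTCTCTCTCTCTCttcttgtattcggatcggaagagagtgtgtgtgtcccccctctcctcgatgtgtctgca
Y17G9B.5, chrIV:4749959-4750159, plus strand: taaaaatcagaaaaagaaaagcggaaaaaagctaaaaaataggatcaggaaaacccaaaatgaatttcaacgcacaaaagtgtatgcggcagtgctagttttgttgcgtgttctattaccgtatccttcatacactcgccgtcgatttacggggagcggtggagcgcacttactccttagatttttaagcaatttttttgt
rpl-15, chrIV:654797-654997, minus strand: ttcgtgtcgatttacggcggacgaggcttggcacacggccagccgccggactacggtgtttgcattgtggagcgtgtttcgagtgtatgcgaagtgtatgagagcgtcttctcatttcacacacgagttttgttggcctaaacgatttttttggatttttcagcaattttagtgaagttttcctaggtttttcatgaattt
Y43F8B.2, chrV:19522867-19523067, minus strand: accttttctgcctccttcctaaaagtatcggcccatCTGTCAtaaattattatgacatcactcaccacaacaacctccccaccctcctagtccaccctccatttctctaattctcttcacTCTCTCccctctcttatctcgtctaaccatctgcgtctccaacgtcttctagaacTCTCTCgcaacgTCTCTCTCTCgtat
The stretch at miz-1 held 9 overlapping copies of the GA repeat unit and the one at Y43F8B.2 held 5, together with 1 Meis core. The stretch at cdc-48.1 held 1 copy of GCGCGA. The 2 stretches at ribosomal protein genes (rpl-15 and Y17G9B.5, whose window is shared with rpl-20) held none of these motifs. The longest run shared by any pair of the 5 was the 12 bases GTCGATTTACGG, at rpl-20 and rpl-15. It was looked for elsewhere after it had been seen. Of 603 promoter regions 3 held it, but 2 of these are the regions it was read from. Those 2 cannot be set against a background share. The search added only 1 promoter region, between rps-12 and ska-3. The run was also present in 1 of 1046 other autosomal regions and in 0.249% of 224511 windows of the same length tiled over all promoter sequence. No conclusion is drawn from these counts.

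Of the 25 promoter regions with the highest signal, 10 lay at genes of the gene lists described below (rpl-3, rpl-15, rpl-20, rpl-35, cdc-48.1, set-16, lin-59, vha-8, hsp-60 and unc-62 itself), and the other 15 did not. The signal given here is the enrichment that the authors assigned to each region. They do not state its scale, so it ranks regions within 1 list only. The region upstream of rpl-3, a gene of the large ribosomal subunit, had the highest pooled signal of the 603, at 80.01. In replicate 1 it had 56.1 and ranked 20, and in replicate 2 it had 23.2 and ranked 21. The region at chrII:10563416-10563759, 181 bp upstream of cdc-48.1, the gene of the p97 ATPase that unfolds ubiquitylated proteins, had a pooled signal of 55.5. Its signals were 24.5 in replicate 1 and 28.8 in replicate 2. Both regions were near the top of each replicate on its own.

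The region of miz-1 at chrIV:10821773-10822116 lay in an intron, 714 bp upstream of an internal start, with 53.1 in the pool, 21.2 in replicate 1 and 31.3 in replicate 2. At unc-62, the gene of the studied protein, the region at chrV:4499470-4499813 had its summit in 5′ UTR sequence, 154 bp downstream of a start. Its pooled signal was 50.8, with 21.8 in replicate 1 and 43.0 in replicate 2, where it ranked 2. The strain holds both the native unc-62 gene and the transgene, and reads from these copies cannot be told apart here.

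A region at chrIII:10759095-10759438 stood 40 bp upstream of tasp-1, a homolog of the protease taspase, and 745 bp upstream of K01G5.10 on the other strand. Its signals were 23.1 in replicate 1 and 24.2 in replicate 2. The regions at rpl-20 (chrIV:4749887-4750230) and rpl-15 (chrIV:654725-655068) had pooled signals of 44.6 and 40.6. Each lay between a pair of genes, the first shared with Y17G9B.5 and the second with K11H12.8. The replicate signals were 20.7 and 17.1 at rpl-20 and 19.4 and 19.6 at rpl-15. Both regions were within the first 100 of each replicate.

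The chromatin regulators set-16 and lin-59 followed. The region at chrIII:13643618-13643961 lay 126 bp upstream of set-16, an MLL-type histone methyltransferase, and 220 bp upstream of drr-2, a translation factor gene on the other strand. It ranked 42 in replicate 1 and 902 in replicate 2. The region 447 bp upstream of lin-59, which encodes an Ash1-type histone methyltransferase, ranked 165 in replicate 1 and 33 in replicate 2. Further leading regions lay upstream of lgg-1, the worm Atg8 of autophagy, of vha-8, a subunit of the vacuolar proton pump, of wdr-23, a substrate receptor of a ubiquitin ligase, and of pfd-1, a prefoldin subunit. The region at zfp-1, a zinc finger protein related to AF10, lay in an intron, 663 bp upstream of an internal start. The region at egl-30, which encodes a Gq alpha subunit, lay 112 bp inside a 5′ UTR.

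Among the 25 promoter regions with the highest signal, 23 had their summit upstream of the nearest start and 2 downstream, and 9 had starts on both strands in reach, so that the 25 regions touched 34 genes. The authors' reproducible list, the one that passed their threshold on the irreproducible discovery rate, held 29 promoter regions. Its 95 regions are the first 95 of the pooled list by signal, so that these 25 are in it by construction, and every share of reproducible regions given here is a share of the regions highest in pooled signal. The other 4 of the 29 lay at zip-2, a bZIP factor gene of the pathogen response, at egg-5, at din-1 and at epic-1. Of the 29, 23 ranked within the first 1000 regions in both replicates and 10 within the first 100. The widest gaps in rank were at zip-2, which ranked 3440 in replicate 1 and 37 in replicate 2, and at hsp-60, the mitochondrial chaperonin gene, which ranked 2044 and 13. The region shared by vha-8 and C17H12.2 stood the other way, at 34 in replicate 1 and 1206 in replicate 2. A place in the reproducible list therefore did not require a high rank in each replicate.

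**Figure D1:**
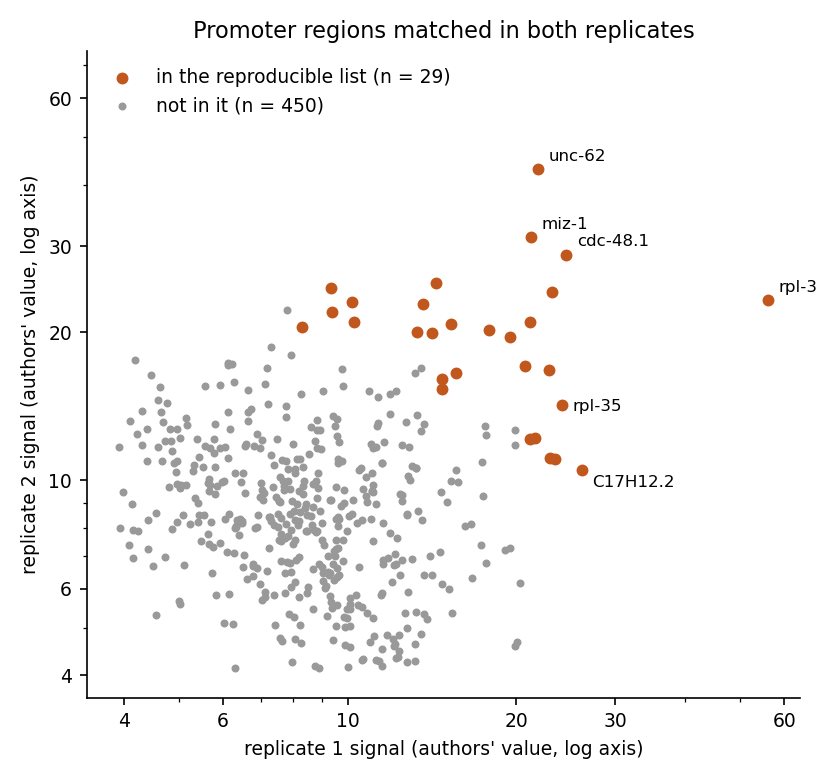
Signal in replicate 2 against signal in replicate 1 (authors' values, both axes logarithmic) for the 479 promoter regions with a match in both replicates. Each point is a region, 29 in the reproducible list and 450 not. rpl-3 stands to the right at 56.1 in replicate 1 and unc-62 at the top at 43.0 in replicate 2, while most regions form a cloud with no rising trend.

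Promoter regions were matched in the replicates somewhat more often than other autosomal regions in replicate 1, and the groups could not be separated in replicate 2. A match is a replicate summit within 200 bp. In replicate 1, 547 of 603 promoter regions had one, or 90.7% (95% exact binomial interval 88.1 to 92.9), against 898 of 1046 other autosomal regions, or 85.9% (83.6 to 87.9); over all autosomal regions it was 87.6%. In replicate 2 the shares were 88.6% (85.7 to 91.0) of promoter regions and 87.1% (84.9 to 89.1) of other regions, against 87.6% of all. With the window cut to 500 bp before and 100 bp past a start, the replicate 2 difference was −0.0860 percentage points, promoter minus other. A match in both replicates was found for 479 promoter regions, or 79.4% (76.0 to 82.6), and for 764 other regions, or 73.0% (70.2 to 75.7), with 75.4% over all. All intervals cover counting error only, and regions are not replicates: with 1 group and 1 pooled list no test across samples could be made.

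Background is part of the replicate lists by design, and each counted 30000 regions. Sequence within 200 bp of a summit made up 13.0% of promoter sequence in replicate 1 and 12.5% in replicate 2. A match in neither replicate was found for 1 promoter region, 681 bp upstream of T16G1.7, and for 1 other region, or 0.121% of all autosomal regions. Matches were not always separate, as 8 promoter regions shared a replicate 1 match with another and 10 shared a replicate 2 match.

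Strong matches were few in either group. Within the first 1000 ranks of both replicates lay 49 promoter regions, or 8.13% (6.07 to 10.6), and 39 other regions, or 3.73% (2.66 to 5.06), against 5.34% of all autosomal regions. The 49 included hsp-1, which encodes the constitutive Hsp70, with 13.7 in replicate 1 and 13.0 in replicate 2. They also included cox-5B, a subunit of cytochrome oxidase, with 13.5 and 16.9, and daf-14, a Smad protein of the dauer pathway, with 17.4 and 10.9. The reproducible list held 29 promoter regions, or 4.81% (3.24 to 6.83), and 23 other regions, or 2.20% (1.40 to 3.28), against 3.15% of all autosomal regions. A replicate q value under 0.05 was reached in both replicates by 14 promoter regions, or 2.32% (1.27 to 3.86), and by 12 other regions, or 1.15% (0.594 to 2.00), against 1.58% of all, and these intervals overlap.

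Signals of the groups overlapped broadly. The median pooled signal was 17.98 in promoter regions (lowest 15.5, quartiles 16.4 and 20.4, highest 80.01) and 17.4 in other autosomal regions (lowest 15.5, quartiles 16.3 and 19.5, highest 82.4). Median replicate signals were 8.91 against 8.66 in replicate 1 and 9.01 against 8.90 in replicate 2. No pooled region had a low q value. The best was 0.151, shared by 32 promoter regions and 25 other regions, and the median was 0.742 in promoter regions and 0.813 in other regions. Across the 479 promoter regions matched in both replicates, the signals of replicate 1 and replicate 2 had a Spearman rho of −0.09, and across the 764 other regions −0.22. The regions had been chosen by their pooled signal, with which rho was 0.51 for replicate 1 and 0.52 for replicate 2 in promoter regions. These are descriptions across regions of the same libraries.

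The share of regions at promoters was higher in the upper part of each list than over the whole list. The window covered 27.2% of autosomal sequence and held 36.6% of autosomal pooled summits (34.2 to 38.9), which is 1.34 times its share. Of the 100 highest autosomal regions, 57% were at promoters (46.7 to 66.9), and of the 1000 highest, 38.4% (35.4 to 41.5). By signal quartile of all autosomal regions the share was 41.9%, 38.3%, 32.8% and 33.3%, starting with the highest. The replicates on their own gave a like order. In replicate 1 the share was 47% of the first 100, 39% of the first 1000 and 30.8% of all 24038 autosomal regions. In replicate 2 it was 46%, 33.6% and 29.7% of all 24082. The ratio to sequence grew with a narrower window, to 1.61 for 500 bp before to 100 bp past a start, and was 1.17 for 2000 bp before to 500 bp past it.

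**Figure D2:**
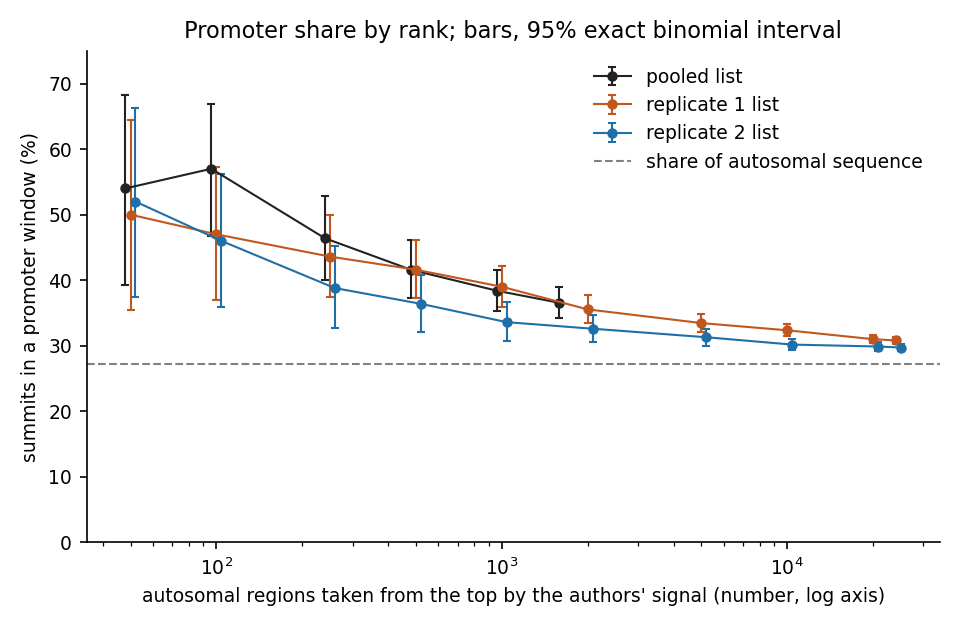
Share of autosomal summits in a promoter window (%) against the number of regions taken from the top by signal (log axis), for the pooled list and each replicate list, with 95% exact binomial intervals and points set slightly apart sideways. The dashed line is the 27.2% of autosomal sequence in such windows. The lists stand at 50% to 54% at the first 50 regions, and the replicate lists end at 30.8% and 29.7%.

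Within the window the summits lay close to the start, on its upstream side. The median summit was 235 bp upstream of the nearest start, while the median base of all promoter windows was 337 bp upstream. The 200 bp just before the start held 159 of 603 summits, or 26.4%, against 19.0% of window bases. The same stretch held 25.1% of promoter summits among the first 1000 autosomal regions of replicate 1 and 24.4% of those in replicate 2. From 400 to 201 bp upstream the lists differed. That stretch held 19.2% of pooled summits, 19.5% in replicate 1 and 13.4% in replicate 2, against 16.5% of bases. The 201 bp from the start onward held 18.9% of summits, against 19.6% of bases. In the reproducible list the median was 211 bp upstream, with 11 of 29 summits in the 200 bp before a start, such as those of drap-1 (69 bp upstream), cdc-48.1 and tasp-1. At the ends of the window, the member farthest upstream lay 1000 bp from mrps-14 (pooled signal 16.9) and the one farthest downstream 200 bp inside gpa-9 (17.8). Just outside it, a summit lay 1001 bp upstream of K01F9.2 (17.2) and another 203 bp inside T10B11.5 (18.8).

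**Figure D3:**
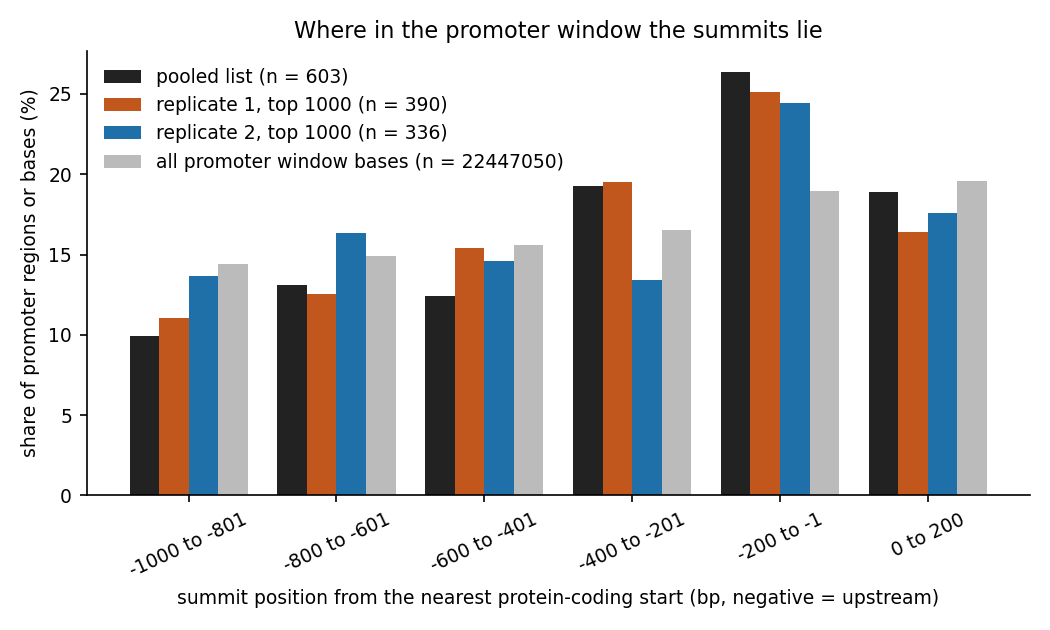
Share of promoter summits (%) by position from the nearest protein-coding start (bp, negative is upstream) for the pooled list, for the promoter regions among the first 1000 autosomal regions of each replicate, and for all bases of the promoter windows. The bin from 200 bp to 1 bp upstream is the highest for the 3 lists, at 26.4%, 25.1% and 24.4%, against 19.0% of bases.

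By annotation, 289 promoter summits were intergenic (47.9%), 125 lay in introns (20.7%), 90 in coding exons (14.9%) and 47 in 5′ UTRs (7.79%). A further 22 lay in 3′ UTRs (3.65%). The other 30 lay in exons that were neither coding sequence nor UTR (4.98%). These are called non-coding exons here, and their gene type was not checked. Intergenic and 5′ UTR summits were more frequent than among other autosomal regions, where they made up 32.8% and 0.956%, which follows in part from the rule that chose the regions. None of the 90 regions with a coding summit was in the reproducible list (0%). The same held for the 22 in 3′ UTRs (0%). The reproducible list had 4.81% of all 603 promoter regions. By annotation it had 19 of the 289 intergenic regions (6.57%) and 4 of the 125 in introns (3.2%). It also had 2 of the 47 in 5′ UTRs (4.26%) and 4 of the 30 in non-coding exons (13.3%). Those in non-coding exons were at drap-1, pfd-1, egg-5 and din-1.

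Starts on both strands were in reach of 90 of the 603 summits, or 14.9% (12.2 to 18.0), whereas 9.91% of promoter window bases have such a pair. The share was 18.7% among the promoter regions of the first 1000 of replicate 1 and 14.6% in replicate 2. Regions with starts on both strands had a median pooled signal of 18.98, against 17.8 for those with starts on 1 strand, and 9 of 90 were in the reproducible list, against 20 of 513. The 9 included those at tasp-1, rpl-20, rpl-15, set-16, vha-8, hsp-60 and pfd-1. Most regions touched 1 gene (500 regions), while 98 touched 2 genes and 5 touched 3.

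The promoter regions were spread over all autosomes. Chromosome V held 139, II 124, III 119, IV 115 and I 106. Per gene, III was the highest, with 5.08% of its protein-coding genes, and V the lowest, with 3.12%. The middle stretch of each chromosome, when cut into 3 equal lengths, held 52.9% of promoter regions (48.8 to 56.9), against 50.4% of other autosomal regions (47.3 to 53.5) and 38.1% of protein-coding genes. Small RNA genes were near few of them: a snoRNA gene lay within 500 bp of 2.49% of promoter summits (1.40 to 4.07) and of 1.53% of other autosomal summits (0.877 to 2.47). For snRNA genes the shares were 0.995% of promoter summits and 0.287% of other summits, and for tRNA genes 0.829% and 1.34%, with overlapping intervals. A piRNA gene was near 2.32% of promoter summits (1.27 to 3.86) and 6.41% of other summits (4.998 to 8.06).

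In all, 676 of 17242 autosomal protein-coding genes, or 3.92%, had a promoter region. For 552 genes, or 3.20%, a region was matched in both replicates, and for 38, or 0.220%, it was in the reproducible list. From the first 1000 autosomal regions of each replicate on its own, 462 genes were reached in replicate 1 and 379 in replicate 2. The lists shared 78 genes, which is 16.9% of the first and 20.6% of the second, and 77 of the 78 were among the 676. Most of the 676 genes had 1 region, 28 had 2 and 3 had more. These were din-1, a corepressor that acts with the nuclear receptor DAF-12 in the dauer decision, with 4 regions, jun-1, which encodes the worm Jun protein, with 3, and F25B5.3, with 3. The 4 regions of din-1 had pooled signals of 31.3, 23.7, 21.5 and 18.3 and were spread over its long locus, and the first of these was in the reproducible list. Those of jun-1 lay close together, 728, 265 and 49 bp upstream of a start, and the regions at 265 and 49 bp overlapped. The region at 728 bp had no match in replicate 1, and the one at 265 bp had none in replicate 2.

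Ribosomal protein and translation factor genes had a promoter region more often than the genes as a whole. Of 78 cytoplasmic ribosomal protein genes on autosomes, 15 had one, or 19.2% (11.2 to 29.7), against 3.92% of all genes. For 14 of the 15 the region was matched in both replicates, as it was for 81.7% of all 676 genes with a region. For 4 it was reproducible (rpl-3, rpl-20, rpl-15 and rpl-35), as it was for 38 of the 676. In the first 1000 regions of each replicate, 14.1% of the list was reached in replicate 1 and 8.97% in replicate 2, against 2.68% and 2.20% of all genes. Below the reproducible ones stood rps-12, with a pooled signal of 31.0 (17.6 in replicate 1 and 12.4 in replicate 2), rps-28, with 28.5 (20.1 and 4.69), and rps-4, with 20.8, which had 13.9 in replicate 1 and no match in replicate 2. The lowest, rpl-27, had 15.6, near the floor of the pooled list. The ribosomal list thus ranged over the whole span of signals. This direction was known from earlier results on the reproducible regions and is no independent evidence. The other gene lists were also chosen with earlier results of these data known. Their shares below are therefore descriptions and no independent evidence either.

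Of 38 translation factor genes 6 had a region (15.8%, 6.02 to 31.3), led by eef-1A.1, which encodes elongation factor 1 alpha, with 26.4 in the pool (14.0 in replicate 1 and 7.0 in replicate 2). eif-3.C, a subunit of initiation factor 3, had 23.3 (9.51 and 12.9). The others were eif-2Bgamma, iff-2, eef-1G and eif-3.K, the last with 2 regions. Of 32 aminoacyl-tRNA synthetase genes 3 had a region (9.38%): ears-2, mars-1 and kars-1, with 19.5, 17.3 and 15.7. None of the regions at genes of these lists was in the reproducible list. The gene drr-2, whose region is reproducible, is not among the listed genes.

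Genes of protein folding and breakdown were also represented. Of 56 chaperone genes 7 had a region (12.5%, 5.18 to 24.1), and for all 7 the region was matched in both replicates, as it was for 81.7% of the 676 genes with a region. hsp-60 had 34.3 (9.33 in replicate 1 and 24.6 in replicate 2), and hsp-110, an Hsp70 exchange factor, had 27.0 (16.2 and 8.08). The hsp-110 region was shared with rpn-3, which encodes a lid subunit of the proteasome on the other strand. dnj-19, a DnaJ protein, had 26.8 (19.4 and 7.26). Of 33 proteasome genes 5 had a region (15.2%, 5.11 to 31.9): rpn-3, rpn-12, rpn-8 and rpn-7 of the lid, with 27.0, 23.9, 21.0 and 20.3, and pas-5 of the core, with 19.2. Of 53 genes of ubiquitin and protein degradation 4 had a region (7.55%), and after cdc-48.1 came ufd-3, with 18.6, and the ubiquitin genes ubq-2 and ubq-1, with 18.5 and 18.3. These values lay just above the median of the promoter regions.

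Among genes of chromatin, 5 of 30 regulators had a region (16.7%, 5.64 to 34.7). After set-16 and lin-59 came cbp-1, the CBP and p300 acetyltransferase, with 29.1 (7.82 in replicate 1 and 22.2 in replicate 2), lin-35, the Retinoblastoma protein, with 18.9, and ash-2, a COMPASS subunit, with 15.8. Of 78 core histone genes 2 had a region (2.56%, 0.312 to 8.96), his-35 and his-37, at 1 shared summit of 19.4; histone genes are near-identical copies, so reads may not be placed uniquely among them. Of 46 splicing genes 5 had a region (10.9%, 3.62 to 23.6), led by snr-7, an Sm protein gene, with 23.6. The share of histone genes was thus below that of all genes, within a wide interval.

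Of the genes that act with UNC-62, ceh-20, the Pbx partner, had a region 739 bp upstream with 24.6 in the pool (13.0 in replicate 1 and 10.7 in replicate 2). ceh-13, the labial-type Hox gene, had a region 592 bp upstream with 28.7, which matched at 24.3 in replicate 2 and had no match in replicate 1. In the pooled list it was the only 1 of 6 Hox genes with a promoter region, and unc-62 and ceh-20 made up 2 of 3 TALE genes. The first 1000 regions of replicate 1 reached 1 of the 6 Hox genes and those of replicate 2 reached 2. unc-62 also had a second promoter region, in an intron at chrV:4506476-4506819, with 27.3 (9.03 and 15.2). Among 43 other ceh homeobox genes ceh-38 alone had a pooled promoter region (2.33%), with 19.1. The first 1000 regions reached 2 of the 43 in replicate 1 and 0 in replicate 2.

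Of 21 dauer and insulin pathway genes 5 had a region (23.8%, 8.22 to 47.2). After din-1 came daf-14, with 22.8, daf-2, the insulin receptor, with 18.8 (5.64 in replicate 1 and 9.84 in replicate 2), daf-19, an RFX factor, with 18.0, and rict-1, the Rictor subunit of TORC2, with 16.3. Only the region at din-1 was reproducible. Among nuclear hormone receptors 12 of 247 had a region (4.86%, 2.54 to 8.33), led by nhr-47, with 26.8 in a window shared with dnj-19, nhr-114, with 20.9, nhr-36, with 20.8, and nhr-161, with 20.2. That share was near the 3.92% of all genes. egl-27 was the 1 of 8 GATA factor genes, egl-20, a Wnt ligand, the 1 of 19 Wnt genes, and lin-28, an RNA-binding protein, the 1 of 7 heterochronic genes, with 18.7, 16.8 and 18.2.

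Energy and tissue genes gave mixed counts. Of 38 nuclear genes of the respiratory chain and ATP synthase 4 had a region (10.5%): cox-5B, with 30.1, atp-1, with 19.0, cyc-1, with 17.6, and cox-5A, with 16.3. Of 17 vacuolar ATPase genes vha-8 (36.2) and vha-2 (17.3) had one. Neuronal genes had 4 of 24 (16.7%, 4.74 to 37.4): snb-1, the synaptobrevin gene, with 23.1, cat-2, tyrosine hydroxylase, with 18.4, rab-3, with 17.6, and snt-1, synaptotagmin, with 16.4. Muscle genes had 3 of 22: unc-22 (17.4), unc-52 (16.5) and act-2 (15.6). Cuticle collagens had 8 of 141 (5.67%, 2.48 to 10.9), led by col-107, col-145, col-114 and col-93, with 25.2, 21.6, 18.1 and 17.6. Near or below the background were germline genes, with glh-2 as 1 of 30 (15.6), cytochromes P450, with cyp-33D1 as 1 of 67 (16.4), and C-type lectins, with clec-57 (19.7) and clec-127 (16.0) as 2 of 237 (0.844%, 0.102 to 3.01). Of 14 intestine genes and 10 hypodermis genes 0 had a promoter region in the pooled list, which allows shares of up to 23.2% and 30.8%. The single autosomal vitellogenin gene had none. The first 1000 regions of replicate 1 reached 1 of the 10 hypodermis genes, as did those of replicate 2, and 0 of the 14 intestine genes in either. The animals were taken whole, so the cells in which UNC-62 was bound cannot be told. A gene with many starts has a wider window, and the counts were not adjusted for that. Within the first 1000 regions of each replicate the counts were small. In replicate 1 and replicate 2, proteasome genes had 2 and 1 of 33, and dauer and insulin genes 2 and 1 of 21. Translation factors had 4 and 2 of 38, and chromatin regulators 3 and 3 of 30. Neuronal genes had 3 and 3 of 24, and chaperones 7 and 5 of 56. Some lists whose pooled interval included the share of all genes had like counts. Muscle genes had 4 and 2 of 22, and respiratory chain genes 4 and 2 of 38. Others were lower, with 0 and 2 of 46 splicing genes and 2 and 0 of 32 synthetase genes. All genes had 2.68% and 2.20%.

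**Figure D4:**
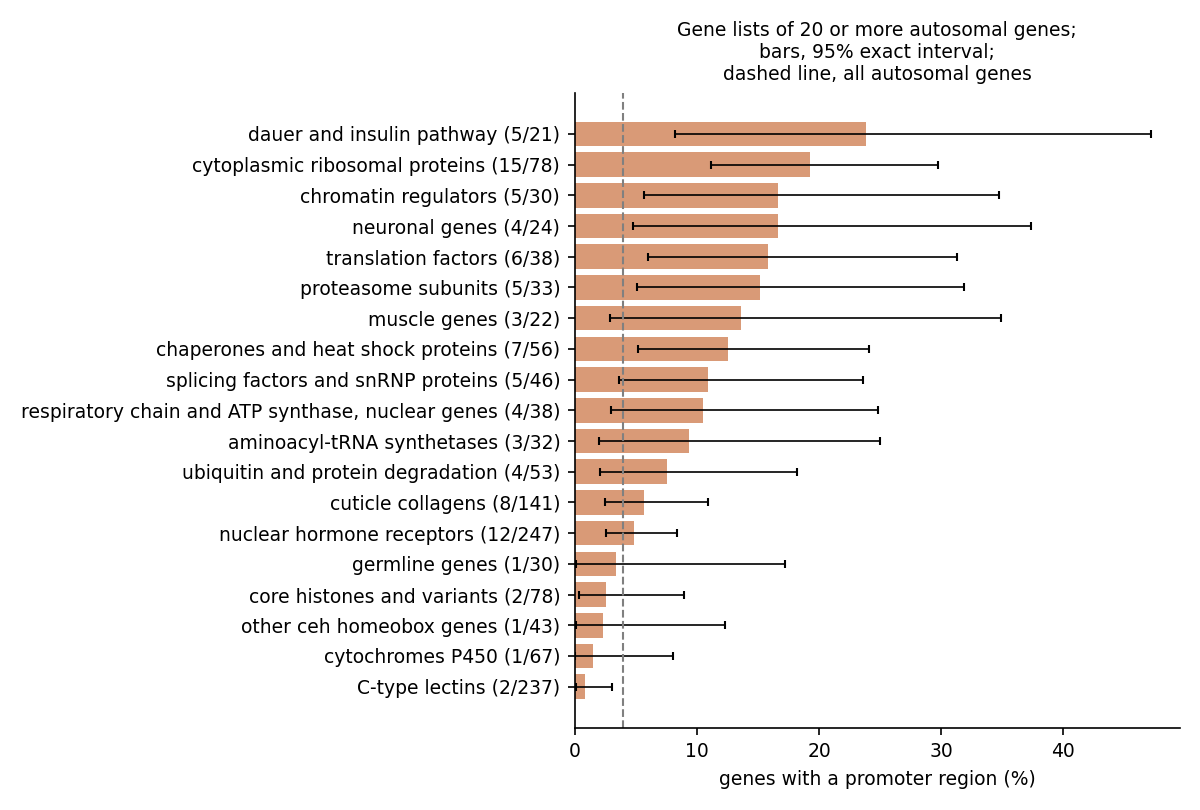
Share of autosomal genes with a promoter region (%) in each list of 20 or more genes, with the number of genes with a region and in the list in parentheses and 95% exact binomial intervals as black bars. The dashed line is the 3.92% of all autosomal protein-coding genes. Of 19 lists, 7 have an interval wholly above it: ribosomal proteins, translation factors, proteasome, chaperones, chromatin regulators, dauer and insulin pathway, and neuronal genes. That of C-type lectins (0.102 to 3.01) lies below it. The lists were chosen with earlier results of these data known, so the intervals are no independent evidence.

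GA repeat units were frequent under the promoter summits, as they were under the other autosomal summits. GAGAGA, or TCTCTC on the other strand, was present within 100 bp of 157 of 603 promoter summits, or 26.0% (22.6 to 29.7). It was at 22.2% of other autosomal summits (19.7 to 24.8) and in 11.4% of all promoter windows of the same length. With only the outermost start of each gene the order turned, at 23.4% of promoter summits and 23.7% of other summits. In promoter regions the share was 34.4%, 28.5%, 22.5% and 18.7% by signal quartile, starting with the highest, and in other regions it was 34.0%, 19.8%, 17.6% and 17.2%. Read by replicate, 26.2% of the promoter regions and 23.1% of the other regions among the first 1000 of replicate 1 held it, and 23.8% and 20.2% in replicate 2. In the reproducible list it was at 17 of 29 promoter summits, or 58.6% (38.9 to 76.5), and at 17 of 23 other summits, or 73.9% (51.6 to 89.8).

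**Figure D5:**
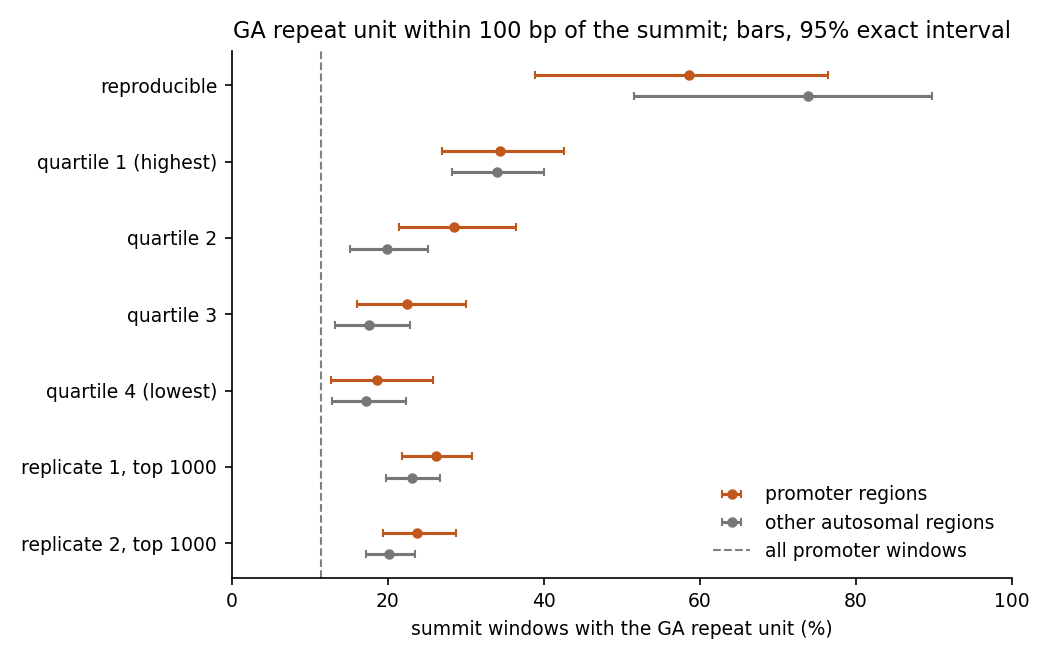
Share of summit windows with the GA repeat unit (%) in promoter regions and in other autosomal regions, for the reproducible list, for signal quartiles of each group in the pooled list and for the first 1000 regions of each replicate, with 95% exact binomial intervals. The dashed line is the 11.4% of all promoter windows. All points lie above it, and the intervals of promoter and other regions overlap in every row.

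Promoter regions with the GA repeat unit had a median pooled signal of 18.8, against 17.6 without it, and 17 of 157 were in the reproducible list (10.8%), against 12 of 446 (2.69%). Relative to the nearest gene the unit was on the sense strand only at 55 summits, on the antisense strand only at 82 and on both at 20. Coding-exon summits held it least often, at 11.1%. The share was highest at the 22 summits in 3′ UTRs, at 36.4%, and the 47 in 5′ UTRs, at 36.2%. Non-coding exons followed, at 33.3%, then introns, at 30.4%, and intergenic summits, at 25.6%. Some of these classes are small, and no background share of each class is given here. Of the 15 regions at ribosomal protein genes 2 held it, against 157 of all 603. The longest unbroken GA or CT run under a promoter summit was 20 bp, and 11 regions had a run of 12 bp or more.

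Base composition moved with these shares. The median GC content of the 201-base windows was 38.8% in promoter regions and 37.3% in other autosomal regions, against 34.8% in all promoter windows. It was 41.8% in the highest and 35.6% in the lowest signal quartile of promoter regions, and 45.3% in the reproducible ones. The part of base composition in the shares of motifs was not tested.

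The letters that Meis proteins are known to bind were not more frequent at promoter summits than at other summits. TGACAG, or CTGTCA on the other strand, was at 47 promoter summits, or 7.79% (5.78 to 10.2), at 8.80% of other summits (7.15 to 10.7) and in 6.58% of all promoter windows. It was at the ceh-13 summit and at 2 of the 3 summits of unc-62 and ceh-20. Such counts were not particular to these genes. TGACAG was also at the summits of ceh-38 and cyp-33D1 and at 2 of 3 summits of synthetase genes. It was at 2 of 12 summits of nuclear hormone receptor genes and at 0 of 7 of translation factor genes. The longer Pbx and Meis site TGATTGAC, or GTCAATCA, was at 4 promoter summits (0.663%, 0.181 to 1.69) and at 19 other summits (1.82%, 1.10 to 2.82), against 0.559% of promoter windows. The first 1000 regions of the replicates did not repeat this difference. TGATTGAC was at 1.03% of promoter regions and 1.15% of other regions in replicate 1, and at 0.893% and 0.602% in replicate 2. In the reproducible list it was at 0 summits of either group. GCGCGA, or TCGCGC, was at 36 promoter summits (5.97%, 4.22 to 8.17), at 2.49% of other summits (1.63 to 3.62) and in 2.54% of promoter windows. In the reproducible list the order was the other way, with 4 of 29 promoter summits and 7 of 23 other summits. In the first 1000 regions of the replicates GCGCGA was at 4.10% of promoter regions and 3.11% of other regions in replicate 1, and at 4.76% and 3.77% in replicate 2. The E-box CACGTG was at 4.98% of promoter summits, 3.92% of other summits and 3.61% of promoter windows, and the GATA site GATAAG at 9.95%, 8.70% and 8.40%. These last intervals overlapped. A match of letters is a description of the window and does not show binding.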

How the data were processed

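UNC-62 ChIP-seq of 2 biological replicates (1 group, numbered by the labels) was deposited as region lists in narrowPeak layout. Per the deposited file lists there was 1 list per replicate and 1 called on both replicates, each holding peaks and background as input for the irreproducible discovery rate, and 1 reproducible list. Column 7 is the deposited signal, an enrichment per region of unstated scale made by the authors, and it served to rank and describe regions inside 1 list. Column 9, the −log10 q value that the authors deposited, was turned into a q value. For the aligner, the caller, versions and depth: not given in the sources used here. Lists on ce10 were not used here, since the gene models are of ce11.

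Summits were column 2 plus column 10, with positions counted from 1. Promoter windows ran from 1000 bp upstream to 200 bp downstream of every transcript start of protein-coding genes in Ensembl release 115 (WBcel235). Matches were summits within 200 bp, the highest signal taken. Motifs were sought on both strands in the 201 bp centred on each summit, and in equal windows tiled every 100 bp. Intervals are exact binomial (Clopper-Pearson) at 95% and cover counting error only. No test was run. The sequence at 1 leading region is not reported here. The members, the 28 gene lists and the motifs were chosen with earlier results of these data known; Hox and TALE genes were taken out of the list of other ceh genes. Named were the genes at the 25 highest promoter regions, up to 4 genes per list by signal, and unc-62; any other gene was named with its values in view. Alternatives covered the window, the starts used, the upper part of the list, merged summits, the match rule, each replicate alone and the motif window. The steps were tested on simulated positions. Python 3.11.15, numpy 2.4.6, pandas 2.3.3, scipy 1.17.1 and matplotlib 3.10.9 were used.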

Additional observations from a re-analysis of the deposited data

How the results depend on the processing

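Over 80 alternative settings of 12 results, 42 values stayed within the counting interval of the reported value, or for counts within 1.5 times, and 38 did not. Most of those that moved follow from a wider or narrower definition. With the window cut to 500 bp before and 100 bp past a start, the promoter share was 23.9% in the pooled list, 24.8% in the first 1000 regions of replicate 1 and 18.8% in replicate 2, with 436 genes. With 2000 bp before and 500 bp past it, these were 56.3%, 57.5%, 53.8% and 1130 genes, with 20.02% of regions having starts on both strands. With the outermost start of each gene alone, the shares were 29.8%, 32.6% and 27.1%. The first 2000 regions of replicate 1 gave 35.6%. The 825 autosomal regions of higher signal gave a promoter share of 40.1%, 385 genes, a median signal of 19.9, matches of 93.4% in replicate 1, 93.7% in replicate 2 and 87.0% in both, 18.1% with starts on both strands and 31.4% with GAGAGA.

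For matches, a limit of 100 bp gave 78.3% in replicate 1, 77.4% in replicate 2 and 58.9% in both, and a limit of 500 bp gave 94.5%, 91.9% and 86.4%. Overlap of regions gave 93.2% in replicate 1 and 84.1% in both. With the first 10000 regions of each replicate, the shares were 74.0%, 70.8% and 46.6%. Without one replicate, the match in the other alone was 88.6% to 90.7%. Within 50 bp of the summit GAGAGA was at 15.1% and TGACAG at 4.64%, and within 250 bp at 42.0% and 15.4%. The count of 29 reproducible promoter regions ranged between 21 and 34. Depth is unknown, the pooled list holds background by design, no pooled q value was below 0.151, and both replicates come from 1 strain, so no value here sets UNC-62 binding apart from signal in an untagged or control library.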
